A study of Mus musculus with 3 samples.

Results

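The genes described here are the neuropilins, a group of class 3 semaphorins and their plexin receptors in cells of the mouse otic vesicle. The group holds 10 of the 32285 genes counted in the series: the neuropilins Nrp1 and Nrp2, the ligands Sema3a, Sema3c, Sema3d and Sema3e, and the plexins Plxna1, Plxna2, Plxna4 and Plxnd1. They were chosen by name, with their UMI counts per library in the otic, neuronal, mesenchymal and endothelial cells already known. Their levels in these cells are therefore given as a description, and the tests between genotypes in the same cells are no independent evidence for the choice.

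Class 3 semaphorins are secreted cues that repel or attract growing axons, migrating neural crest cells and blood vessels. Most of them bind a neuropilin, which has little signalling of its own and pairs with a plexin of the A type. The plexin carries the signal into the cell and alters adhesion and the actin cytoskeleton. SEMA3E is an exception, since it binds plexin-D1 without a neuropilin and patterns blood vessels. Neuropilins also act as co-receptors of vascular endothelial growth factors. In the inner ear, semaphorin signalling is known mainly for guiding the axons of the cochleovestibular ganglion.

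The study sequenced single cells from pooled, dissociated otic vesicles of mouse embryos at E10.5 with the droplet-based Chromium kit, version 3.1, which reads the end of each transcript and tags each molecule with a UMI. The CD group is the heterozygote labelled Sox9Y440X/+, with 1 library, and carries a premature stop in 1 copy of the transcription factor gene Sox9. The WT group is wild type, with 2 libraries. By its title, the study concerns opposing activities of SOX9 and Wnt and the control of endolymphatic development by SOX10. CD has 1 library, so an effect of the genotype and a peculiarity of that 1 pool of embryos cannot be told apart. Whether the WT pools came from separate litters is not given in the labels, so the spread behind the p-values could be technical. That spread is estimated from these libraries and drawn toward that of all genes, so it is not the spread of 1 gene alone.

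The CD library held 186439890 UMIs over 12322 barcodes, and the WT libraries held 157373393 over 8330 (replicate 1) and 202584468 over 16649 (replicate 2). After barcodes with under 1000 detected genes or over 10% mitochondrial UMIs were dropped, CD kept 8548 cells and WT replicates 1 and 2 kept 6564 and 11018. Between 14 and 27 of the kept barcodes were shared by a pair of libraries. The WT libraries differed far beyond sampling noise (chi-square over 19790 genes of 138 for each degree of freedom) and were counted as separate samples. Scrublet called 3.29% of the kept CD cells, and 2.80% and 3.39% of the WT cells, as doublets, which stayed in unless their removal is stated. Levels are given in CPM, a gene's UMIs after each library is brought to the same total. In otic cells the Sox9 transcript stood at 671 TMM-scaled CPM in CD and at 414 and 342 in WT replicates 1 and 2 (log2 fold change 0.83, SE 0.15, adjusted p = 0.125, edgeR). A transcript-end tag does not read the mutation, so this level does not check the genotype.

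Cells were assigned by gates on marker genes. Otic cells had at least 1 UMI of Epcam and at least 2 of Fbxo2, Hmx2, Hmx3 and Pax2 together, and numbered 2778 in CD and 2537 and 4083 in WT. Neurons were gated on Neurod1 and Stmn2 without Epcam (876 in CD, 608 and 1092 in WT), and mesenchyme on Prrx1 and Twist1 without Epcam (1860 in CD, 1083 and 2508 in WT). Endothelium was gated on Cdh5 and Pecam1, with 252 cells in CD and 276 and 304 in WT. All 9 otic, 8 neuronal, 8 mesenchymal and 8 endothelial markers that the gates did not use were detected in their own class in each library. They were also detected in other classes, so detection alone does not check the gates. The neuronal markers summed to 5468 CPM in CD neurons and 5682 and 4873 in WT neurons. In otic cells they summed to 297 CPM in CD and 242 and 346 in WT. The 9 otic markers summed to 1021 CPM in CD otic cells and to 1438 and 1864 in WT, with the otoconial matrix gene Oc90 at 81.1 CPM in CD and 527 and 981 in WT. The part of this marker shift in the otic results below was not tested. The gates overlapped: 127 CD cells, and 40 and 261 WT cells, met both the neuronal and the mesenchymal gate, and 39 CD cells, and 39 and 52 WT cells, met the neuronal and the endothelial gate. Cells with at least 10% haemoglobin UMIs (413 in CD, 264 and 284 in WT) served as a reference for free RNA.

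The promoters of Nrp2 and Plxna2 are shown because these 2 members passed the genotype test together in otic cells with Rdh10, a gene of retinoic acid synthesis. Each is the 250 bases before the transcription start, from the RefSeq annotation of build GRCm38.p6 on the plus strand. RefSeq promoters were found for 8 of the 10 members, with Plxna1 and Plxna4 not among them. The counts themselves were made on build mm39, and no position is shared between the builds here. Nrp2 is at chr1:62703067-62703316 and Plxna2 at chr1:194619579-194619828, and capitals mark a match to the TCF/LEF motif ATCAAAG on either strand:
Nrp2: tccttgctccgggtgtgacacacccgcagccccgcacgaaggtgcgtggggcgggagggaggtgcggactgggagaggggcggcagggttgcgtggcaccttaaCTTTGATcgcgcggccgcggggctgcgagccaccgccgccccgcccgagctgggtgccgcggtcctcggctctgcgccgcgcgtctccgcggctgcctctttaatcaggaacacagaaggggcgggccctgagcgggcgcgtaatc
Plxna2: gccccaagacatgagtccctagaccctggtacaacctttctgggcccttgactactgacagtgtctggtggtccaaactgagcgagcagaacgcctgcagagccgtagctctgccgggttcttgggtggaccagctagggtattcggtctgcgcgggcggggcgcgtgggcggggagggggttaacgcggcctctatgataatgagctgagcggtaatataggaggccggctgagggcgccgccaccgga
The Nrp2 promoter held 1 match to ATCAAAG, read here on the opposite strand as CTTTGAT. This motif occurred in 3.21% of the 32851 RefSeq promoters of the same length. Neither promoter held the SOX-type motifs ACAAT or ACAAAG, searched on both strands, which occurred in 27.7% and 16.5% of promoters. Plxna2 held none of the 3 motifs in these 250 bases. A match is a run of letters and is not a measured binding site.

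Nrp2, the co-receptor of SEMA3F, SEMA3C and VEGF-C, was present in each of the 4 classes. Levels across classes are CPM of the class total in each library, without TMM scaling. In endothelium Nrp2 stood at 218 CPM in CD and at 156 and 138 in WT replicates 1 and 2, the highest of the 4 classes in each library. In otic cells it stood at 116 CPM in CD (Poisson interval 113 to 118, 8229 UMIs) and at 50.9 CPM (49.3 to 52.5, 3761 UMIs) and 62.0 CPM (60.4 to 63.6, 5518 UMIs) in WT. The CD otic value was above both WT values, and these intervals cover counting error only. In neurons the level was 88.1 CPM in CD and 102 and 82.0 in WT, and in mesenchyme 61.0 CPM in CD and 56.3 and 57.6 in WT. Otic cells thus ranked above neurons and mesenchyme in CD, below both in WT replicate 1, and between them in WT replicate 2. The erythroid reference held 8.48 CPM in CD and 3.51 and 7.28 in WT, or 16.5 CPM in CD and 6.79 and 12.9 in WT once haemoglobin UMIs were left out of the total.

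Nrp1, the co-receptor of SEMA3A and of VEGF-A, had a fixed order across the classes in each library, with endothelium first, then neurons, mesenchyme and otic cells. In endothelium it stood at 129 CPM in CD and at 165 and 134 in WT. In neurons it stood at 54.9 CPM in CD and at 78.9 and 54.1 in WT, and in mesenchyme at 24.2 CPM in CD and 25.7 and 17.6 in WT. Otic cells held 4.46 CPM in CD and 4.26 and 5.31 in WT, near the erythroid reference without haemoglobin (2.04 CPM in CD, 3.13 and 6.31 CPM in WT). After thinning each cell to 5000 UMIs, 1.54% of CD otic cells and 1.63% and 1.76% of WT otic cells had an Nrp1 UMI, against 0.24% of CD erythroid cells and 1.52% and 1.06% of WT erythroid cells. The otic level of Nrp1 was thus close to that of free RNA in both WT libraries. Within otic cells, those with at least 2 UMIs of the neuronal determination gene Neurog1 held more Nrp1, 13.6 CPM in CD and 13.2 and 11.4 in WT.

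**Figure D1:**
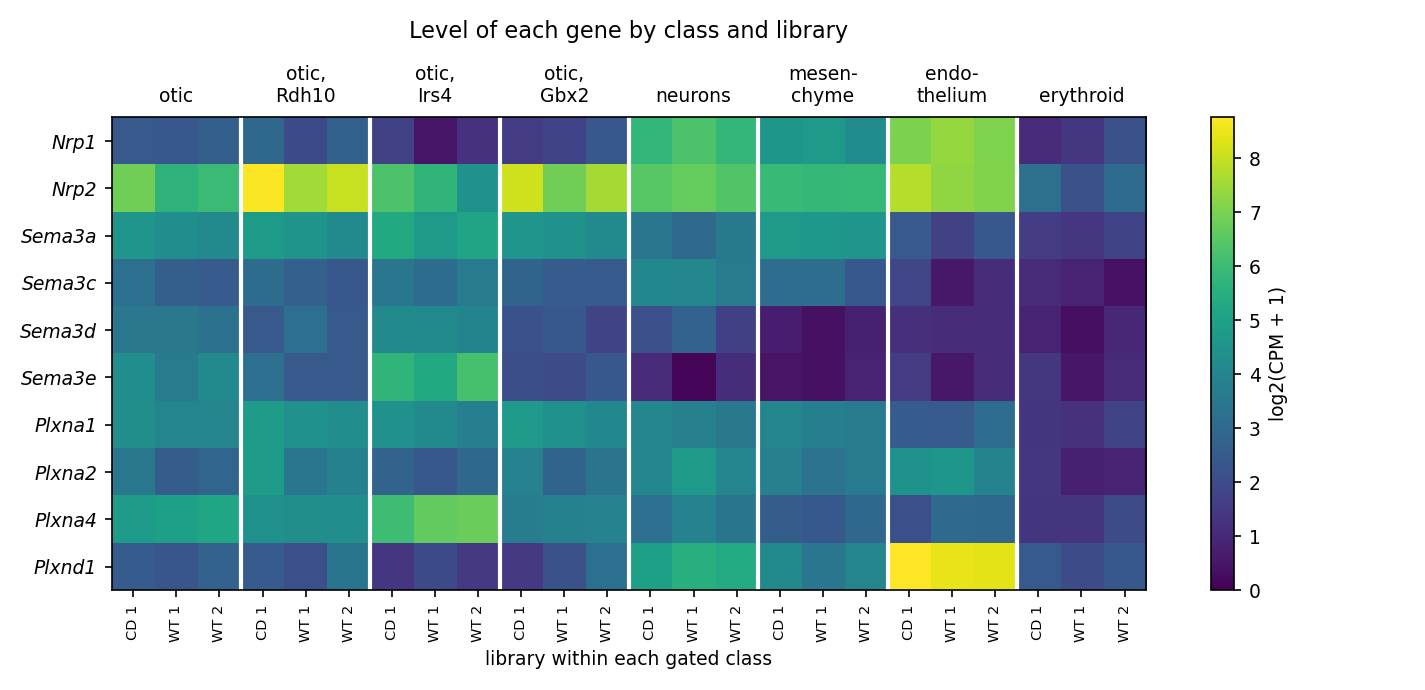
Level of each of the 10 genes as log2(CPM + 1), by colour, in each library (CD 1, WT 1, WT 2) of the otic, neuronal, mesenchymal, endothelial and erythroid gates and of 3 otic subsets. Plxnd1 is brightest in endothelium, Sema3e and Plxna4 in the otic cells with Irs4, and Nrp2 in the otic cells with Rdh10.

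Among the ligands, Sema3e stood above the free-RNA reference in otic cells only, among the 4 classes. It stood at 18.7 CPM in CD and at 11.04 and 16.9 in WT otic cells, and CD was the highest of the 3. In neurons it stood at 1.07 CPM in CD and 0.089 and 1.21 in WT, and in mesenchyme at 0.375 CPM in CD and 0.308 and 0.784 in WT, under the erythroid reference of 3.18 CPM in CD and 0.870 and 1.85 in WT without haemoglobin. The highest otic level was in cells with at least 2 UMIs of Irs4, an adaptor of insulin receptors, with 52.2 CPM in CD and 39.3 and 73.7 in WT. In cells with Gbx2, a homeobox gene of the dorsal otic vesicle, Sema3e stood at 3.31 CPM in CD and 3.05 and 4.23 in WT.

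Sema3d was highest of the 4 classes in otic cells, at 10.1 CPM in CD and 10.1 and 8.53 in WT, and its libraries overlapped. In neurons it stood at 3.39 CPM in CD and 5.81 and 2.18 in WT, above the erythroid reference in each library. It was highest in otic cells with the homeobox gene Otx2, at 25.3 CPM in CD and 19.6 and 20.1 in WT. In mesenchyme it stood at 0.617 CPM in CD and 0.308 and 0.711 in WT, under the erythroid reference without haemoglobin (1.59 CPM in CD, 0.522 and 1.69 CPM in WT). Sema3a, the repellent ligand of NRP1, was shared by otic cells (22.9 CPM in CD, 18.7 and 17.1 in WT) and by mesenchyme (25.9 CPM in CD, 24.5 and 22.9 CPM in WT). In neurons it stood at 9.78 CPM in CD and 7.15 and 10.54 in WT, below mesenchyme in each library. Sema3c, a ligand of both neuropilins, was highest in neurons, at 16.1 CPM in CD and 15.5 and 10.97 in WT, against 8.24 CPM in CD and 5.22 and 4.76 in WT otic cells.

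Among the receptors, Plxnd1 marked the endothelium, with 433 CPM in CD and 355 and 337 in WT. After thinning to 5000 UMIs per cell, 82.7% of CD endothelial cells and 77.0% and 76.1% of WT endothelial cells had a Plxnd1 UMI, against 1.21% of CD and 2.28% and 1.41% of WT erythroid cells. Otic cells had 0.91% in CD and 1.19% and 1.46% in WT, at or near the erythroid share, so Plxnd1 was not distinguishable from background there. The neuronal gate held 30.6 CPM of Plxnd1 in CD and 45.5 and 40.2 CPM in WT, but neurons that met no other gate held 2.61 CPM in CD and 1.95 and 2.53 in WT. The 8 endothelial markers summed to 234 CPM in the CD neuronal gate and to 385 and 335 CPM in the WT neuronal gate, in the same order as Plxnd1. The neuronal levels and ranks of the other members are those of the whole gate, cells that met other gates included.

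The A-type plexins were spread more evenly. Plxna1 stood at 19.1 CPM in CD and 15.3 and 14.8 in WT otic cells, and at 15.5 CPM in CD and 13.2 and 10.2 in WT neurons. Plxna4, which also binds class 6 semaphorins, was highest in otic cells with Irs4, at 64.3 CPM in CD and 100.4 and 106 in WT. In otic cells as a whole it stood at 27.9 CPM in CD and 30.3 and 35.0 in WT, with CD the lowest. Neurons held 8.15 TMM-scaled CPM of Plxna4 in CD and 13.6 and 9.87 in WT. Mesenchyme held 4.95 in CD and 4.38 and 6.80 in WT, and endothelium 3.32 in CD and 6.98 and 6.82 in WT, on the same scale. Plxna2 had its otic maximum in the cells with Rdh10, at 27.0 CPM in CD and 9.83 and 13.4 in WT. It reached 15.3 CPM in CD and 25.7 and 14.7 in WT neurons, and 21.4 CPM in CD and 23.4 and 14.0 in WT endothelium.

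Between genotypes, Nrp2 stood higher in CD than in both WT libraries in the otic class as a whole. Counts were summed per library and class and tested with edgeR, which scales totals by the TMM method, and p-values were adjusted over all genes of the class by the Benjamini-Hochberg method. Nrp2 stood at 113 TMM-scaled CPM in CD and at 51.5 and 62.8 in WT. The log2 fold change was 0.98 (SE 0.16), with an adjusted p of 0.0764 in edgeR, above the threshold of 0.05. Plxna2 stood at 10.1 TMM-scaled CPM in CD and 5.08 and 6.31 in WT (log2 fold change 0.83, SE 0.23, adjusted p = 0.468), and Sema3c at 8.03 in CD and 5.29 and 4.83 in WT (0.67, SE 0.22, adjusted p = 0.754). Plxna4 was the member with CD below both WT libraries, at 27.2 TMM-scaled CPM in CD and 30.7 and 35.5 in WT (log2 fold change -0.28, SE 0.16).

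All 10 members passed the filter on low counts in otic cells, and 0 were called by edgeR, while DESeq2 called 1 (Nrp2). Over all 17161 genes tested in otic cells, edgeR called 0.0932%. An unadjusted p under 0.05 was reached by 3 members (Nrp2, Plxna2 and Sema3c) and by 4.08% of all genes. CD lay above both WT libraries for 6 members, as it did for 33.2% of all genes, and below both for 1 member, as it did for 29.8%. The median log2 fold change was 0.29 over the 10 members and 0.0040 over all genes. Under the 9 alternatives with a test, the Nrp2 change kept its direction, at 0.95 to 1.04 on the log2 scale, with adjusted p between 9.09e-06 and 0.260. With equal cells and 5000 UMIs per cell the Plxna2 change was 1.25 (adjusted p = 0.00183), above the 0.97 of Nrp2 in the same fit. Leaving out WT replicate 1 gave 0.83 and leaving out WT replicate 2 gave 1.13.

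**Figure D2:**
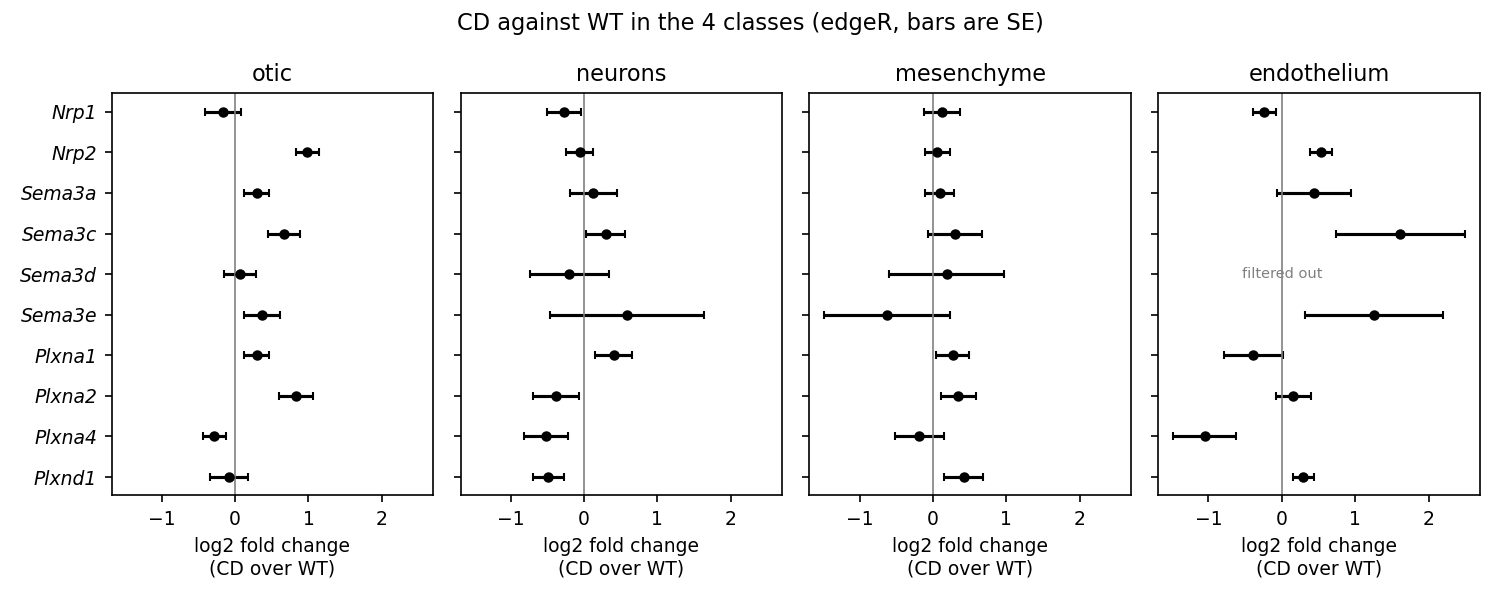
Log2 fold change of CD over WT for each member in otic cells, neurons, mesenchyme and endothelium, from edgeR, with bars of 1 SE. Nrp2 in otic cells lies at 0.98 with a short bar, and the wide bars belong to members with few counts in that class.

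The Nrp2 transcripts of otic cells lay mostly in the cells with Rdh10. These cells were 16.9% of otic cells in CD and 19.2% and 15.8% in WT, and they held 74.4% of otic Nrp2 UMIs in CD and 85.7% and 79.2% in WT. Nrp2 stood there at 407 TMM-scaled CPM in CD and at 190.2 and 263 in WT. It rose in CD, with a log2 fold change of 0.84 (SE 0.19, adjusted p = 0.0489, edgeR). Plxna2 rose beside it, at 26.1 TMM-scaled CPM in CD and 10.0 and 13.6 in WT (log2 fold change 1.14, SE 0.24, adjusted p = 0.0372). For both genes CD lay above both WT libraries, and WT replicate 2 lay above WT replicate 1.

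These were the 2 of 10 members called in the cells with Rdh10, where 0.328% of 14959 genes were called and 0.0735% were called higher in CD. CD lay above both WT libraries for 8 members (32.5% of all genes) and below both for 1 (30.3%). The rule that chose the members used counts from these cells, so nothing is read from these shares. The calls were narrow: when cells with 1 Rdh10 UMI were admitted, the adjusted p was 0.0916 for Nrp2 and 0.212 for Plxna2, and with Scrublet doublets removed it was 0.509 and 0.465, while the fold changes stayed within 0.93 and 1.29 on the log2 scale. Sema3e stood at 7.98 TMM-scaled CPM in CD and 4.49 and 4.51 in WT in these cells (log2 fold change 0.83, SE 0.32, adjusted p = 0.736). The Rdh10 transcript itself stood there at 231 CPM in CD and 211 and 368 in WT, and the 9 otic markers summed to 1114 CPM in CD and 1499 and 1934 in WT, and their part in the result was not tested.

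Otic cells outside the Rdh10 group also held more Nrp2 in CD. They stood at 36.5 TMM-scaled CPM in CD and at 9.59 and 16.2 in WT, with CD above both (log2 fold change 1.5, SE 0.24, adjusted p = 0.0327, edgeR). This was 1 of 10 members called, where 0.163% of 16611 genes were called and 0.0421% were called higher in CD, and this split of the cells was chosen after the data had been seen. EdgeR also called Nrp2 when the Rdh10 threshold was 1 UMI (adjusted p = 0.000902) and with doublets removed (adjusted p = 0.00438). The share of all genes called in these 2 refits is not given here, so nothing is read from the number of calls. Without WT replicate 1 the log2 fold change was 1.16, and without WT replicate 2 it was 1.93. The difference of the genotype effect, cells with Rdh10 minus other otic cells, was -0.66 (SE 0.11, adjusted p = 0.00526, edgeR interaction with the library as a block), and 0.257% of 16704 genes were called in that test. With doublets removed the difference was -0.80 (adjusted p = 0.171), and with 1 Rdh10 UMI as the threshold it was -0.32 (adjusted p = 0.0069). The erythroid reference, at 8.48 CPM in CD and 3.51 and 7.28 in WT, was also highest in CD. Without haemoglobin UMIs in its total, as given above, it was higher in each library and nearer the level outside the Rdh10 group. The part of this reference in the result was not tested. Outside the Rdh10 group the Gbx2 transcript stood at 29.3 CPM in CD and 20.2 and 11.9 in WT, also highest in CD. Its part in the result was not tested either.

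**Figure D3:**
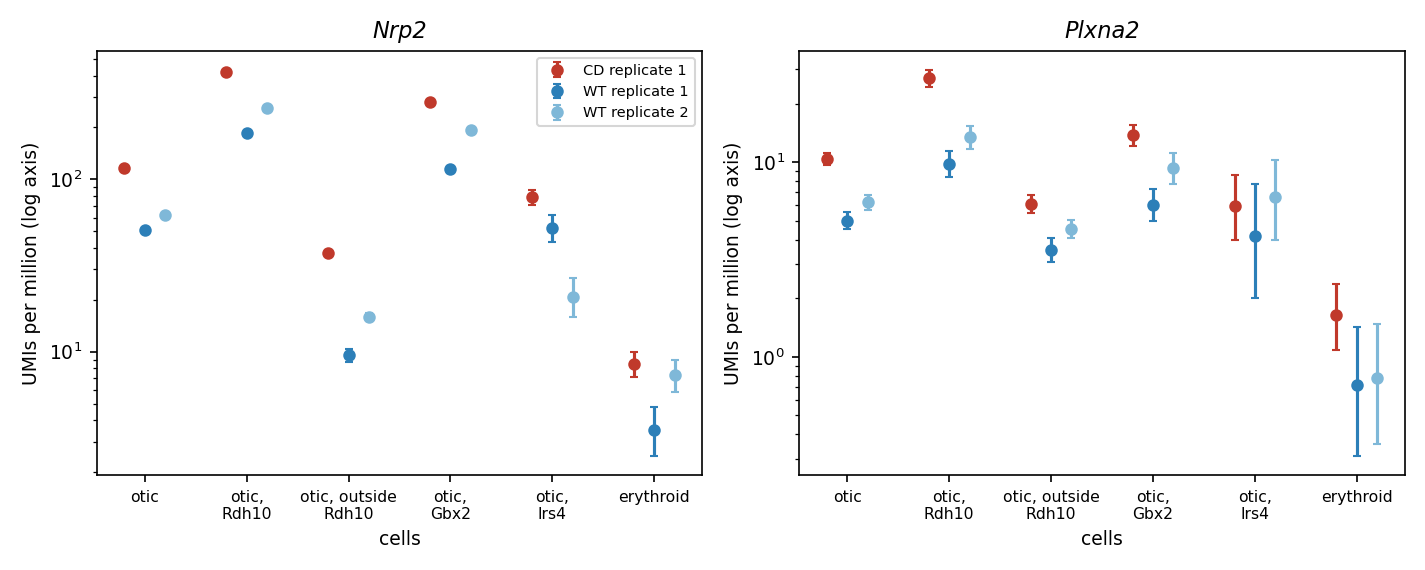
Nrp2 and Plxna2 in CPM on a log axis, with 95% Poisson bars, in otic cells, in 4 groups of otic cells and in erythroid cells, for CD replicate 1 and WT replicates 1 and 2. CD is above both WT libraries for Nrp2 in each group shown, the erythroid reference included. That reference is 8.48 against 3.51 and 7.28, with haemoglobin UMIs in the total.

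The share of cells with an Nrp2 UMI moved with the level. After thinning to 5000 UMIs, 59.9% of CD cells with Rdh10 (exact 95% interval 55.3 to 64.4) had one, against 40.2% (35.8 to 44.7) and 49.1% (45.2 to 53.1) in WT. Before thinning the shares were 79.4% in CD and 67.8% and 69.9% in WT, with median depths of 25169.5 UMIs in CD and 31392.5 and 20967 UMIs in WT. Outside the Rdh10 group the thinned shares were 10.9% in CD (9.65 to 12.3) and 3.35% (2.61 to 4.23) and 5.86% (5.09 to 6.72) in WT. The erythroid share was 3.16% in CD (1.69 to 5.34) and 1.52% (0.416 to 3.85) and 3.89% (1.96 to 6.85) in WT. In each library the share outside the Rdh10 group was above the erythroid share, with overlapping intervals in WT replicate 1 and WT replicate 2. The 5000 UMIs of erythroid cells included haemoglobin, so their shares understate free RNA. No excess over free RNA is therefore read from the WT shares. The level outside the Rdh10 group was 37.3 CPM in CD and 9.52 and 15.9 in WT. It was above the erythroid level of each library, with or without haemoglobin UMIs in that total. These intervals are over cells of 1 library each, so they do not test a difference between genotypes.

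**Figure D4:**
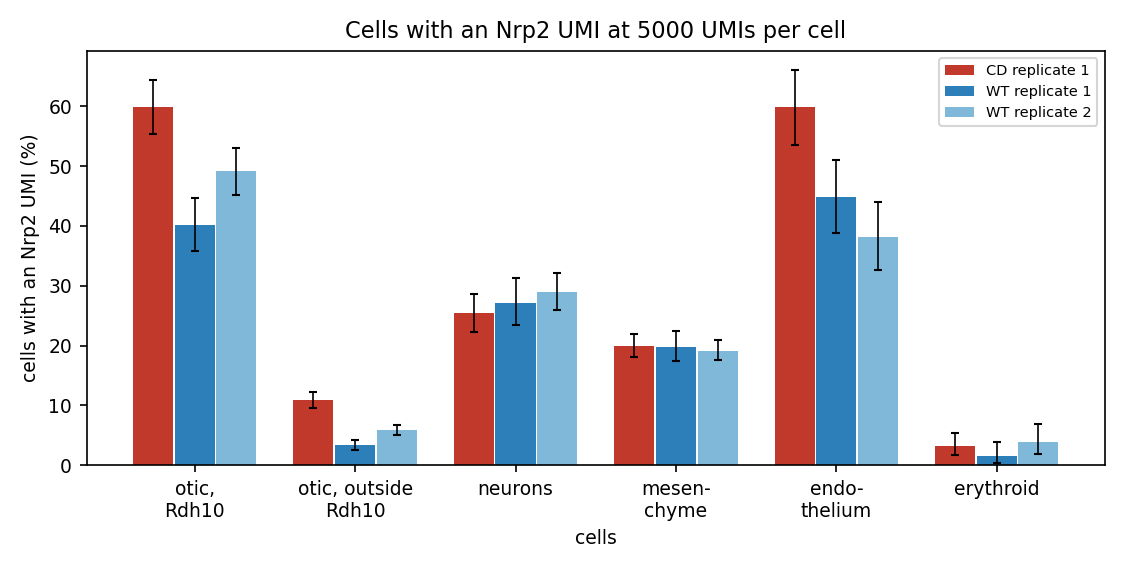
Percentage of cells with an Nrp2 UMI after thinning each cell to 5000 UMIs, as bars from 0 with exact 95% binomial intervals, for CD replicate 1 and WT replicates 1 and 2. In otic cells with Rdh10 the CD bar is at 59.9% and the WT bars are at 40.2% and 49.1%, while in neurons and mesenchyme the bars of the 3 libraries overlap.

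In otic cells with Irs4 (135 in CD, 72 and 97 in WT), the receptor Plxna4 lay lower in CD. It stood at 62.2 TMM-scaled CPM in CD and at 102 and 109 in WT, with CD below both (log2 fold change -0.77, SE 0.19, adjusted p = 0.0961, edgeR). Nrp2 stood at 76.3 in CD and 53.4 and 21.4 in WT (log2 fold change 1.06, SE 0.29, adjusted p = 0.195), with a wide gap between the WT libraries. Without WT replicate 1 the Nrp2 log2 fold change was 1.83, and without WT replicate 2 it was 0.51. Neither was called, and the count was 0 of 8 members that passed the filter, with 2 at an unadjusted p under 0.05 (5.57% of all genes). Over all genes 0.416% of 11288 were called. Nrp1 and Plxnd1 did not pass the filter. When cells with 1 Irs4 UMI were admitted, edgeR called both genes, Nrp2 at an adjusted p of 9.44e-06 and Plxna4 at 0.0465. With doublets removed it did likewise, at 6.5e-06 and 0.00776. The share of all genes called in these alternatives is not given here, so nothing is read from the number of members called. The haemoglobin and red cell markers summed to 3815 CPM in these CD cells and to 23649 and 5318 CPM in WT, and their part in the result was not tested.

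Otic cells with Gbx2 were 21.9% of otic cells in CD and 19.8% and 11.7% in WT. They held 62.9% of otic Nrp2 UMIs in CD and 54.7% and 44.5% in WT. Nrp2 stood there at 276 TMM-scaled CPM in CD and 116 and 193 in WT (log2 fold change 0.84, SE 0.28, adjusted p = 0.999), and Plxna2 at 13.5 in CD and 6.14 and 9.37 in WT (log2 fold change 0.80, SE 0.31). CD was above both WT libraries for each. EdgeR called 0 of the 10 members, with 3 at an unadjusted p under 0.05 (2.65% of all genes), and 0.00675% of 14811 genes were called. Cells with Rdh10 and cells with Gbx2 overlapped, so these values are not independent of those above. The genotype effect on Plxnd1, which is low in otic cells, was -1.97 in cells with Gbx2 minus the other otic cells (SE 0.35, adjusted p = 8.37e-05, edgeR interaction), where 0.694% of 16427 genes were called. With 1 Gbx2 UMI as the threshold the adjusted p was 0.952.

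In otic cells with at least 2 UMIs of Otx2 (169 in CD, 325 and 438 in WT), CD lay above both WT libraries for 9 of the 10 members, as it did for 35.9% of all genes there. EdgeR called 0 of the 10, with 6 at an unadjusted p under 0.05 (5.35% of all genes), and called 0.208% of 13969 genes. This test was added after the data had been seen, as was the same test in otic cells with Neurog1, Sox2 or Isl1. CD lay above both WT libraries for 4, 7 and 7 members there (33.3%, 33.5% and 32.6% of all genes). An unadjusted p under 0.05 in edgeR was reached by 2, 1 and 3 members (4.37%, 4.18% and 3.70% of all genes). The cells with Otx2 had the highest of these counts, in a choice made after the data had been seen. The members were chosen with otic counts known, so nothing is read from the counts. Nrp1 stood at 7.95 TMM-scaled CPM in CD and 1.80 and 3.88 in WT (log2 fold change 1.48, SE 0.42, adjusted p = 0.474). Plxnd1 stood at 9.15 in CD and 4.63 and 2.66 in WT (log2 fold change 1.33, SE 0.36, adjusted p = 0.381). The 8 endothelial markers summed to 43.5 CPM in these CD cells and 34.8 and 38.8 CPM in WT, and their part in the result was not tested.

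In neurons, neither edgeR nor DESeq2 called a member (0 of 10 each), and edgeR called 0% of 14750 genes. An unadjusted p under 0.05 was reached by 1 member (Plxnd1) and by 1.80% of all genes. CD lay above both WT libraries for 2 members (28.4% of all genes) and below both for 3 (27.9%). Nrp2 stood at 88.0 TMM-scaled CPM in CD and 99.6 and 84.0 in WT, so CD lay between the WT libraries (log2 fold change -0.06, SE 0.19). Plxnd1 stood at 30.6 in CD and 44.6 and 41.1 in WT (log2 fold change -0.48, SE 0.21), and in neurons that met no other gate the change was 0.19. Nrp1 and Plxna4 were the other members with CD below both WT libraries.

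In mesenchyme, edgeR and DESeq2 called 0 of the 10 members, and edgeR called 0.0384% of 15611 genes. An unadjusted p under 0.05 was reached by 0 members and by 1.19% of all genes. Nrp2 stood at 59.9 TMM-scaled CPM in CD and 56.6 and 58.4 in WT (log2 fold change 0.06, SE 0.17). Nrp2, Sema3a, Plxna1, Plxna2 and Plxnd1 had CD above both WT libraries, as 30.4% of all genes did, and no member had CD below both, as 26.4% of all genes did.

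In endothelium, 9 of the 10 members passed the filter, Sema3d being left out. Nrp2 stood at 215 TMM-scaled CPM in CD and 156 and 139.9 in WT, with CD above both (log2 fold change 0.54, SE 0.15, adjusted p = 0.0777, edgeR). Plxnd1 stood at 427 in CD and 355 and 342 in WT (log2 fold change 0.29, SE 0.14, adjusted p = 0.999), and Nrp1 at 128 in CD and 165 and 136 in WT (-0.24, SE 0.16). Plxna4 stood at 3.32 in CD and 6.98 and 6.82 in WT (log2 fold change -1.05, SE 0.43, adjusted p = 0.890). Of the 9 members, edgeR called 0, as did DESeq2, where edgeR called 0.319% of 12835 genes. An unadjusted p under 0.05 was reached by 3 of them and by 3.85% of all genes. CD lay above both WT libraries for 5 members (33.5% of all genes) and below both for 2 (32.7%). In endothelial cells that met no other gate, edgeR called Nrp2, with a log2 fold change of 0.63 and an adjusted p of 0.00734. This was 1 of the 9 alternatives with a test, and the others did not call it. The share of all genes called in that fit is not given here.

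The genotype effect on Nrp2 was also compared between classes. The effect in otic cells minus that in neurons was 1.04 (SE 0.20, adjusted p = 0.858), minus that in mesenchyme 0.92 (SE 0.13, adjusted p = 0.883), and minus that in endothelium 0.45 (SE 0.17, adjusted p of 1), each from an edgeR interaction with the library as a block. No gene was called in any of the 3 tests (0% of 17391, 17368 and 17014 genes). An unadjusted p under 0.05 was reached by 2, 3 and 2 members, Nrp2 being one of them each time, and by 2.88%, 2.47% and 2.39% of all genes. A difference of the Nrp2 effect between classes was therefore not shown.

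Within otic cells, Plxna4 was higher and Nrp2 lower in the cells with Sema3e than in those without. Cells were thinned to 5000 UMIs and split by whether they had a Sema3e UMI (206 cells with one in CD, 124 and 272 in WT). Plxna4 stood at 106 CPM in CD cells with Sema3e against 21.4 CPM in those without. In WT replicate 1 the pair was 129 against 27.3 CPM, and in WT replicate 2 it was 127 against 30.6 CPM. Nrp2 went the other way in each library, with 62.1 against 138 CPM in CD, 22.6 against 56.8 CPM in WT replicate 1 and 36.8 against 67.7 CPM in WT replicate 2. Sema3a, Sema3c, Sema3d and Plxna1 were each higher in the cells with Sema3e in all 3 libraries. Plxna2 had no common direction, with 13.6 against 11.6 CPM in CD, 8.06 against 5.01 CPM in WT replicate 1 and 3.68 against 5.30 CPM in WT replicate 2.

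**Figure D5:**
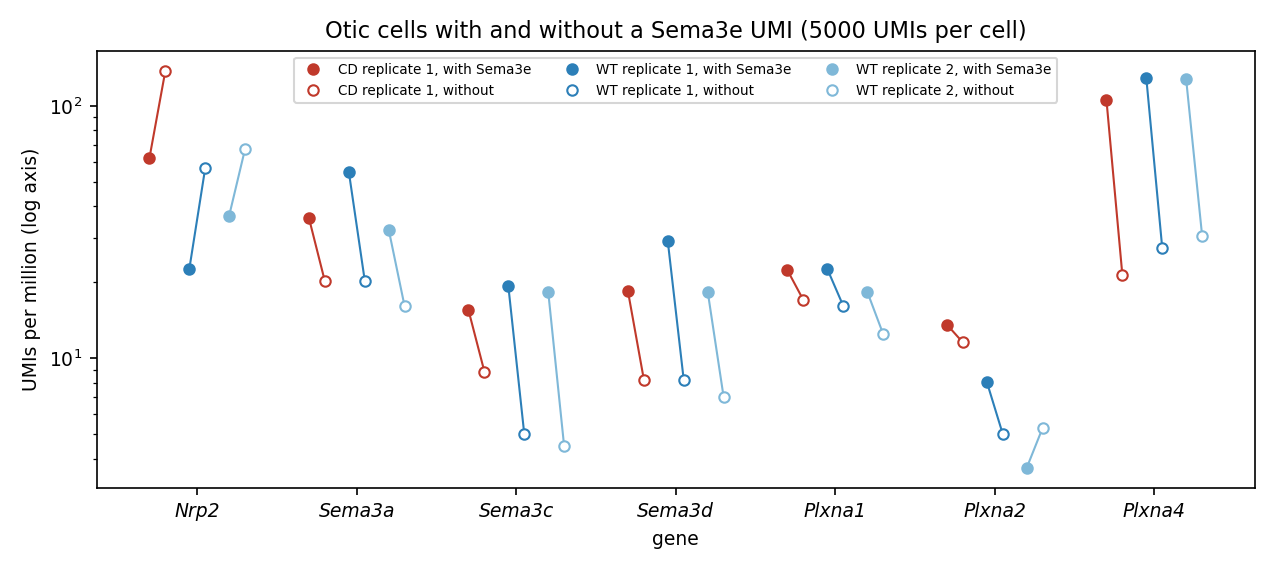
CPM on a log axis for 7 members in otic cells with a Sema3e UMI (filled) and without one (open), at 5000 UMIs per cell, for CD replicate 1 and WT replicates 1 and 2. Plxna4 is higher and Nrp2 lower in the cells with Sema3e in each library.

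The share of otic cells with both a Sema3e and a Plxna4 UMI was 3.62 times the product of the single shares in CD and 3.51 and 3.05 times in WT. For Nrp2 and Plxna2 it was 3.08 times in CD and 4.32 and 3.35 times in WT. For Nrp2 and Plxna4 it was 0.619 times in CD and 0.665 and 0.721 times in WT, below the product in each library. The highest ratio of any pair in each library was that of Nrp1 and Plxnd1, at 7.81 in CD and 12.3 and 8.80 in WT. It came from 3 cells in CD and 6 and 9 in WT, and both genes are low in otic cells. The part of free RNA or doublets in any of these ratios was not tested. These ratios describe cells of the same libraries at 1 fixed depth and carry no test.

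Across the 12 sums of 4 classes and 3 libraries, the genes with the pattern most like Nrp1 were Adam19, Vim and Man1c1 (Pearson correlation of 0.990 each on log2(CPM + 1), among 8595 genes). For Nrp2 they were Raph1 at 0.951, Prkar1a at 0.942 and Abl2 at 0.941. Vim, for vimentin, stood between 187 and 322 CPM in otic cells and between 2367 and 2634 CPM in endothelium. The 12 sums share libraries and depth, and these correlations carry no p.

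None of the other pathway genes tested passed the threshold in the 4 classes. Of 55 genes in 5 lists, 54 passed the filter in otic cells, 53 in neurons, 54 in mesenchyme and 47 in endothelium. EdgeR and DESeq2 called 0 of them in each class. An unadjusted p under 0.05 in edgeR was reached by 5, 5, 0 and 3 of them, and by 4.08%, 1.80%, 1.19% and 3.85% of all genes. The lists were chosen with earlier results of these data known, so nothing is read from these counts. In otic cells the remaining class 3 semaphorins and plexins (7 of 8 tested) had a median log2 fold change of 0.08, the other semaphorins (13 of 13) -0.06, the VEGF partners (8 of 8) -0.11, the intracellular effectors (16 of 16) 0.10 and the co-receptors (10 of 10) 0.10, against 0.0040 over all genes. Sema6a, a transmembrane ligand of plexin-A2 and plexin-A4, stood at 128 TMM-scaled CPM in CD and 108 and 111 in WT otic cells (log2 fold change 0.23, SE 0.14). L1cam, an adhesion molecule that associates with NRP1, stood at 1.63 in CD and 2.85 and 3.97 in WT otic cells (log2 fold change -1.06, SE 0.30, adjusted p = 0.512). Tyrobp, an adaptor of myeloid receptors listed for its link to plexin-A1, stood at 1.84 in CD and 3.48 and 6.76 in WT (-1.48, SE 0.38, adjusted p = 0.392), and the 5 macrophage markers, Tyrobp among them, summed to 6.30 CPM in CD and 7.17 and 21.3 in WT otic cells. In endothelium, Dpysl3, an effector that binds the cytoskeleton downstream of semaphorins, stood at 53.9 TMM-scaled CPM in CD and 30.9 and 39.1 in WT (log2 fold change 0.62, SE 0.19, adjusted p = 0.156). In neurons, the VEGF receptor Flt1 stood at 29.4 TMM-scaled CPM in CD and 46.5 and 42.3 in WT, and its ligand Pgf at 4.01 in CD and 13.0 and 7.32 in WT, in the neuronal gate whose endothelial marker sums are given above.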

How the data were processed

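The matrices deposited by the authors hold raw UMI counts, made with Cell Ranger 6.0 and build mm39 per the submitters' processing notes, with no normalization, and the file header gives version 6.0.0. Barcodes under 1000 detected genes or over 10% mitochondrial UMIs were dropped. Gates needed at least 2 UMIs of their genes together. The choice of members named otic subsets without a threshold, and 2 UMIs was used for each. Scrublet in scanpy 1.11.5 (expected rate 5%) called doublets, removed only in an alternative. Counts were summed per library and class and tested with edgeR 4.0.16 in R 4.3.3 (TMM, filterByExpr, quasi-likelihood test), with DESeq2 1.42.0 as an alternative, Benjamini-Hochberg adjustment and a threshold of 0.05. The 1 residual degree of freedom comes from the WT pair, so the lone CD library is assumed to vary like WT. EdgeR also borrows spread from all genes. The median prior degrees of freedom were 8.75 in otic cells, 21.9 in cells with Rdh10 and infinite in endothelium. The p-values and SE there thus rest mostly on that shared spread and little on a gene's own WT pair. SE was obtained by dividing the log2 fold change by the root of its F statistic. The procedure was also run on simulated data in which CD varied like WT, so that run does not check the assumption about the CD library. Intervals are at 95% and cover counting error only. A free-RNA gate used at least 10% haemoglobin UMIs. The members, gates and gene lists were chosen with earlier results of these data known. The text names all 10 members, and from each list the genes past the threshold or otherwise examples from the 2 of smallest p. Levels of different genes are not compared, since a transcript-end count has no length scale. A gate of surface ectoderm held otic markers and one of neural tube had too few cells, so neither is reported.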

Additional observations from a re-analysis of the deposited data

Results flagged for a closer look

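The genotype effect on Nrp2 differed between otic cells with at least 2 UMIs of Rdh10 and the other otic cells, by -0.66 on the log2 scale (SE 0.11, adjusted p = 0.00526, edgeR interaction). CD was above both WT libraries on either side of the split. In the same test the difference was -0.32 (adjusted p = 0.0069) with 1 Rdh10 UMI as the threshold. It was -0.80 (adjusted p = 0.171) with Scrublet doublets removed.

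The genotype effect on Plxnd1 differed between otic cells with at least 2 UMIs of Gbx2 and the other otic cells, by -1.97 (SE 0.35, adjusted p = 8.37e-05, edgeR interaction), where 0.694% of 16427 genes were called. Plxnd1 stood at 1.74 CPM in CD and 3.49 and 8.29 in WT cells with Gbx2, and at 5.88 CPM in CD and 4.31 and 5.27 in WT in the other otic cells. The 8 endothelial markers summed to 21.5 CPM in CD and 29.0 and 63.9 in WT cells with Gbx2, in the same order as Plxnd1. The difference was -0.76 (adjusted p = 0.952) with 1 Gbx2 UMI as the threshold and -0.49 (adjusted p of 1) with doublets removed.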

How the results depend on the processing

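No paired analysis was possible because CD has 1 library and shares only the number 1 with WT. Of the counts recomputed, 75 stayed within 1.5 times the reported count and 9 moved. Of the 457 values of single genes refitted with a test, 425 kept direction and side of the threshold, 16 crossed the threshold and 16 changed sign. Of the 194 values that leave out a WT library, 28 changed sign, none of them a called value, with reported sizes of up to 0.62 on the log2 scale (Sema3e in mesenchyme, 0.25 without WT replicate 2). In otic cells the members called were 1 (Nrp2) with DESeq2, 1 (Nrp2) with no gene filter and 2 (Nrp2, Plxna2) with equal cells and 5000 UMIs per cell, and with no gene filter 1 other pathway gene, Tyrobp, was called (log2 fold change -1.49, adjusted p = 0.00462). In endothelium 1 member (Nrp2) was called in cells of 1 class only. In cells with Rdh10 0 were called with 1 UMI as the threshold and 0 without doublets, and in cells with Irs4 2 (Nrp2, Plxna4) were called with either. The cause was not tested. The share of all genes called in these subset alternatives is not given here. Over all genes, otic calls numbered 16 as reported, 6 without doublets, 7 each with 2000 detected genes, 5% mitochondrial UMIs or a gate of 3 UMIs, 1 in cells of 1 class only, 13 with library totals, 62 with DESeq2, 155 with no gene filter and 116 with equal cells. In neurons they numbered 0 as reported and up to 74 with no gene filter, in mesenchyme 6 and 0 to 54, and in endothelium 41 and 0 (DESeq2) to 76. Those from leaving out a WT library include Plxnd1 in otic cells (0.17) and in cells with Rdh10 (0.40), both without WT replicate 2, and Sema3d in neurons (0.60) without WT replicate 1. Values that changed sign in a fit with a test follow. With equal cells these were Sema3a at -0.41, Sema3d at 0.013 and Plxnd1 at 0.22 in neurons, and Sema3a at -0.033 and Sema3c at -0.051 in mesenchyme. In cells of 1 class only they were Sema3a at -0.0084 and Plxnd1 at 0.19 in neurons. Without doublets they were Sema3a at -0.13 in endothelium, Plxna2 at -0.15 with Irs4, and Plxnd1 at -0.37 outside the Rdh10 and -0.18 outside the Gbx2 cells. With a subset threshold of 1 UMI they were Plxna4 at -0.19 with Rdh10, Sema3c at 0.40 and Sema3d at -0.057 with Irs4, Sema3e at 0.25 with Gbx2, and Plxnd1 at 0.0079 outside the Irs4 cells. Leaving out either WT library leaves no residual degrees of freedom, so those fits give values and no test.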
